A study of Mus musculus with 8 samples.

Results

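Cytochrome P450 genes outside family 1 were taken from the autosomes (1 to 19) and X as every protein-coding gene with a symbol of Cyp followed by a digit, leaving out Cyp1a1, Cyp1a2, Cyp1b1 and Cyp51. There were 95 such genes among 21631 protein-coding genes in the RefSeq table of GRCm38.p6, the assembly behind mm10. They fell into 37 subfamilies, of which 28 had 1 gene, 2 had 2 to 4 genes (Cyp2a with 4, Cyp11b with 2) and 7 had 5 or more. The large ones were Cyp2c with 15 genes, Cyp3a and Cyp4f with 9 each, Cyp2d and Cyp4a with 8 each, Cyp2j with 7 and Cyp2b with 5.

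Accessible chromatin had been mapped by ATAC-seq, in which a transposase cuts and tags DNA left free by nucleosomes, in Hepa-1c1c7, an established mouse hepatoma line. Cells were grown for 72 h without chromate (0 µM) or with 0.1, 0.5 or 1 µM potassium chromate, which carries chromium in its hexavalent form. Each of these groups had 2 libraries, and the labels do not say whether they came from separate cultures. One region list per treated dose was analysed, named against the untreated libraries that all 3 lists share, so there is no replicate error and no difference between doses could be tested. Whether a listed region means more accessible chromatin than in untreated cells is not stated, so listed regions are not read here as changes caused by chromate.

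P450 enzymes are haem proteins that insert oxygen into lipophilic molecules, drawing electrons from P450 oxidoreductase in the endoplasmic reticulum or from adrenodoxin in mitochondria. In the liver, families 2 and 3 clear drugs and other foreign compounds, family 4 oxidises fatty acids, and single-copy genes make bile acids and activate or inactivate vitamin D and retinoic acid. Many genes of families 2, 3 and 4 lie side by side in tandem arrays of similar copies. Hepatoma lines commonly express few of the P450 genes of adult hepatocytes.

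The lists held 14401 regions at 0.1 µM, 11130 at 0.5 µM and 15894 at 1 µM, with median deposited scores of 11, 10 and 13 on a scale that the authors do not state. The score is used here as a description only and is not compared between doses. A gene was counted as having a region at an end when a listed region touched the 1 kb either side of its start or end coordinate. A wider count took the gene body with 10 kb either side. Marker genes did not settle the labelled cell type. Of 13 hepatocyte and hepatoma marker genes found in the table, Apoa2 and Foxa2 had a region at an end in each list, and Alb, Afp, Ttr and Hnf4a had none there. Among 5 immune markers 0 had one, among 5 adrenal and gonad markers 0, and among 7 stellate, fibroblast and endothelial markers only Dcn, at 0.5 and 1 µM. The share of all genes with an end region was 19.5%, 18.7% and 23.0% in order of dose, so counts this small do not stand apart from it. In the wide window, 4, 3 and 5 hepatocyte and hepatoma markers had a region, 1, 1 and 2 immune markers (Ptprc in each list), 2, 3 and 4 stellate, fibroblast and endothelial markers (Col1a1 and Col3a1 in each list) and 0 adrenal and gonad markers. Depth is unknown, because the files hold no read counts, and a region missing from a list is not shown to be closed.

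P450 genes carried listed regions less often than protein-coding genes as a whole, in every list and by both counts. At a gene end, 8 of 95 P450 genes (8.42%) had a region at 0.1 µM, against 19.5% of all protein-coding genes. At 0.5 µM the count was 5 (5.26%), against 18.7% of all genes. At 1 µM it was 7 (7.37%), against 23.0%. In the gene body with 10 kb, 13 P450 genes (13.7%) had a region at 0.1 µM, against 31.7% of all genes. The counts were 11 (11.6%) against 30.2% at 0.5 µM and 15 (15.8%) against 36.8% at 1 µM. The median P450 gene spanned 22.7 kb and the median protein-coding gene 17.3 kb. Per length of merged gene windows, P450 genes held 4.14, 2.99 and 5.29 listed regions per Mb in order of dose, against 7.62, 6.30 and 8.74 over all protein-coding genes. Over all lists together, 76 of the 95 genes (80.0%) had no region in the wider window, against 57.3% of all protein-coding genes.

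**Figure D1:**
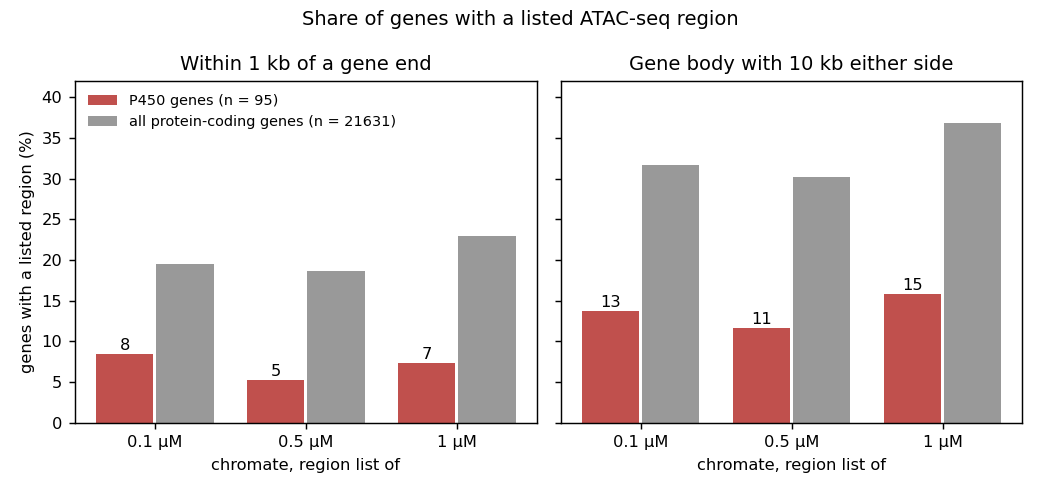
Percentage of genes with a listed region (vertical axis) in the 0.1, 0.5 and 1 µM lists, for the 95 P450 genes (red, with the number of genes above each bar) and all 21631 protein-coding genes (grey), within 1 kb of a gene end (left) and in the gene body with 10 kb either side (right). The P450 bars lie between 5.26% and 15.8%, each below the grey bar of the same list.

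Promoter sequences show what sort of start site some of the listed P450 genes have. RefSeq promoters of GRCm38.p6 matched 73 of the 95 genes. Of the genes with an end region, Cyp39a1, Cyp7b1 and Cyp24a1 had no promoter entry, so their start sites could not be examined. A listed region lay within 1 kb of the RefSeq start site in 6 of the 73 genes, Cyp20a1, Cyp4v3, Cyp27a1, Cyp2j6, Cyp4b1 and Cyp2c69, and covered the start itself in Cyp20a1, Cyp4v3 and Cyp2j6. By list this made 5 (6.85%), 4 (5.48%) and 4 of 73 genes (5.48%) in order of dose, against 19.8%, 19% and 23.4% of all genes with a promoter in the table. The 250 bases before the start of these genes are printed below with every CpG dinucleotide in capitals, 5′ to 3′ on the gene's own strand. A pair of well-known drug-metabolising genes without a region at the start, Cyp3a11 and Cyp2e1, follow as a contrast chosen after the values were seen.
Cyp20a1 (chr1:60343050-60343299, plus strand): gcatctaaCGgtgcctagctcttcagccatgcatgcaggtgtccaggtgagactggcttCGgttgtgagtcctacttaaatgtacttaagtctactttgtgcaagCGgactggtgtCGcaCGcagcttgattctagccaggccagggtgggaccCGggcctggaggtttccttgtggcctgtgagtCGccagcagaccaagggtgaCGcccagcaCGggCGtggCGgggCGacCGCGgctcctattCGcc
Cyp4v3 (chr8:45333164-45333413, minus strand): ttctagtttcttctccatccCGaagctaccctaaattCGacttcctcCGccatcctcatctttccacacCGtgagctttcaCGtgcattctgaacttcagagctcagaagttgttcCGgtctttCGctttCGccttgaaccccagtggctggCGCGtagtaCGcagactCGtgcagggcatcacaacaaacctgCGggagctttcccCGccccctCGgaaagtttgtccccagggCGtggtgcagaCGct
Cyp27a1 (chr1:74713285-74713534, plus strand): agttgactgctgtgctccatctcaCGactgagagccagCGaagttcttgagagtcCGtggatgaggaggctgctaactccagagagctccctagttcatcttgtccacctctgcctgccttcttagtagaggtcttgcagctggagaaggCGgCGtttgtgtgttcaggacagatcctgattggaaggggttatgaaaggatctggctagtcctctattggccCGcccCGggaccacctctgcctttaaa
Cyp2j6 (chr4:96553652-96553901, minus strand): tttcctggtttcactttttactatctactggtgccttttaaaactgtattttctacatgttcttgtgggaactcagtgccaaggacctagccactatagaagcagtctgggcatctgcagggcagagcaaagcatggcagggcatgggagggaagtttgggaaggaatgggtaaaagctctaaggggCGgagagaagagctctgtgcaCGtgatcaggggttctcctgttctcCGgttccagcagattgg
Cyp4b1 (chr4:115647722-115647971, minus strand): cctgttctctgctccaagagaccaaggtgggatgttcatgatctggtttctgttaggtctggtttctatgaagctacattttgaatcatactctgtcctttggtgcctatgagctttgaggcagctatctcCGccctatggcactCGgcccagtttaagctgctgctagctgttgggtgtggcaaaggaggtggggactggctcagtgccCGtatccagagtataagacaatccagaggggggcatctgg
Cyp2c69 (chr19:39886770-39887019, minus strand): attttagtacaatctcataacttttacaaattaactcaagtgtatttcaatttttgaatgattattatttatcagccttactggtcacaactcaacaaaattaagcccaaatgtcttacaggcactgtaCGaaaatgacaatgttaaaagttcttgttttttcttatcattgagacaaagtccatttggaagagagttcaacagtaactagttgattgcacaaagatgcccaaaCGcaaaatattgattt
Cyp3a11 (chr5:145879855-145880104, minus strand): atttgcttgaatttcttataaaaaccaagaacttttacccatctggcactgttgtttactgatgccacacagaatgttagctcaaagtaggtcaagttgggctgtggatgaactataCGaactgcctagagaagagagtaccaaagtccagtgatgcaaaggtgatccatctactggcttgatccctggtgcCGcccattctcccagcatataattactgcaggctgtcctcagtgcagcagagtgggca
Cyp2e1 (chr7:140763569-140763818, plus strand): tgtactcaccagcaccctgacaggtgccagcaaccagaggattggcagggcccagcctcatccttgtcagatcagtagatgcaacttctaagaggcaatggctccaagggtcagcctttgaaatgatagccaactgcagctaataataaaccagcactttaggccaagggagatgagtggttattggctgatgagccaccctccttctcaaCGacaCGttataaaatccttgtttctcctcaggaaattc
The CpG observed to expected ratio over the 300 bases of the table (250 before and 50 after the start) was 0.672 in Cyp20a1 and 0.759 in Cyp4v3. It was 0.436 in Cyp27a1, 0.215 in Cyp2j6, 0.242 in Cyp4b1 and 0.383 in Cyp2c69, against 0.125 in Cyp3a11 and 0.217 in Cyp2e1. Regions within 1 kb of the start were thus found at promoters both rich and poor in CpG. Of the starts that a region covered, only that of Cyp2j6 was poor in CpG. In Cyp2c69 the regions lay 860 to 937 bp inside the start, outside these 300 bases.

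As a class, P450 promoters were poor in CpG. The median ratio was 0.152 over 73 P450 genes, against 0.586 over all 17274 protein-coding genes with a promoter in the table. A ratio of at least 0.6 was found in 5 P450 promoters (6.85%), against 49.0% of all promoters. The 5 were Cyp20a1, Cyp4v3, Cyp2r1, which starts vitamin D activation, Cyp26a1, which breaks down retinoic acid, and Cyp46a1, a brain cholesterol hydroxylase. Each belongs to a subfamily of 1 gene. The subfamily medians were 0.0556 in Cyp2d, 0.0658 in Cyp3a, 0.0889 in Cyp2a, 0.105 in Cyp2b, 0.107 in Cyp2c, 0.114 in Cyp4f, 0.204 in Cyp2j and 0.228 in Cyp4a.

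Regions at the start site were rarer in CpG-poor promoters of all kinds, and the P450 share there was below that of all such genes, on small counts. Among promoters with a ratio under 0.6, 3 of 68 P450 genes (4.41%) had a region within 1 kb of the start at 0.1 µM, against 7.71% of all such genes. At 0.5 µM it was again 3 (4.41%), against 7.07%, and at 1 µM 2 (2.94%), against 8.92%. Among promoters at or above 0.6, 2, 1 and 2 of 5 P450 genes had one in order of dose, against 32.4%, 31.5% and 38.5% of all such genes. Under 0.6, the P450 promoters had a median ratio of 0.14, against 0.234 for all such genes, so CpG content was not matched there. The part of CpG content in the lower P450 share was not tested. With counts this small, the gap within CpG-poor promoters amounts to a few genes.

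**Figure D2:**
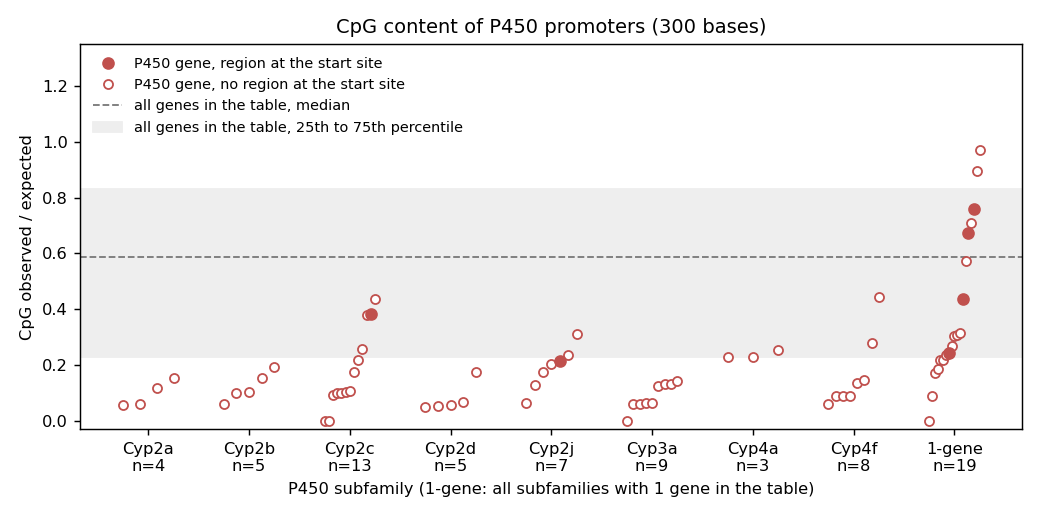
CpG observed to expected ratio (vertical axis) in the 300-base RefSeq promoter of 73 P450 genes by subfamily, with subfamilies of 1 gene pooled at the right and filled points for genes with a listed region within 1 kb of the start in any list and open points for the others. The grey band spans the 25th to 75th percentile of all 17274 genes (0.228 to 0.832) and the dashed line is their median of 0.586, which 5 P450 genes exceed.

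Genes alone in their subfamily were listed more often than those of large subfamilies, in a grouping chosen, like the role groups below, after the values were seen. The 28 genes that are alone in their subfamily had a region in the gene body with 10 kb in 9 cases (32.1%) at 0.1 µM, 8 (28.6%) at 0.5 µM and 9 (32.1%) at 1 µM, against 31.7%, 30.2% and 36.8% of all genes. At a gene end they had one in 6 (21.4%), 3 (10.7%) and 5 cases (17.9%), against 19.5%, 18.7% and 23.0% of all genes. The 61 genes of subfamilies with 5 or more members had one in 4 (6.56%), 3 (4.92%) and 6 cases (9.84%) in the wide window, and in 2, 2 and 2 (3.28% each) at a gene end. The 6 genes of Cyp2a and Cyp11b had 0 in each list. Per merged window the single-gene subfamilies held 10.1, 6.20 and 10.9 regions per Mb, and the large subfamilies 1.71, 1.71 and 3.07. All regions that touched another protein-coding gene (5, 4 and 8 in order of dose) lay near genes of single-gene subfamilies. With each region given only to its nearest gene, Cyp27b1 left the wide count in each list. So did Cyp2t4 at 0.5 and 1 µM, Cyp24a1 at 0.5 µM and Cyp2w1 at 1 µM, and no gene of a large subfamily. The single-gene counts thus rest in part on regions of neighbouring genes. Neighbouring genes of a tandem array share windows, so these genes are not independent, and no test was made of the difference.

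The nearest listed region lay at a median of 122 kb from a P450 gene at 0.1 µM, against 61.9 kb from any protein-coding gene. At 0.5 µM the medians were 152 and 63.8 kb, and at 1 µM 106 and 36.4 kb. Single-gene subfamilies had medians of 38.4, 71.1 and 31.6 kb, and subfamilies of 5 or more 152, 156 and 126 kb. Cyp4f genes, most of which hydroxylate leukotrienes and long fatty acids, lay at a median of 1080 kb at 0.1 µM. In that list alone they were the farthest among subfamilies of more than 1 gene. At 0.5 µM their median was 386 kb, against 387 kb in Cyp2b, and at 1 µM 185 kb, against 198 kb in Cyp2a. Of the 9 Cyp4f genes, 8 lie in the same array on chromosome 17, so their distances are not independent.

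**Figure D3:**
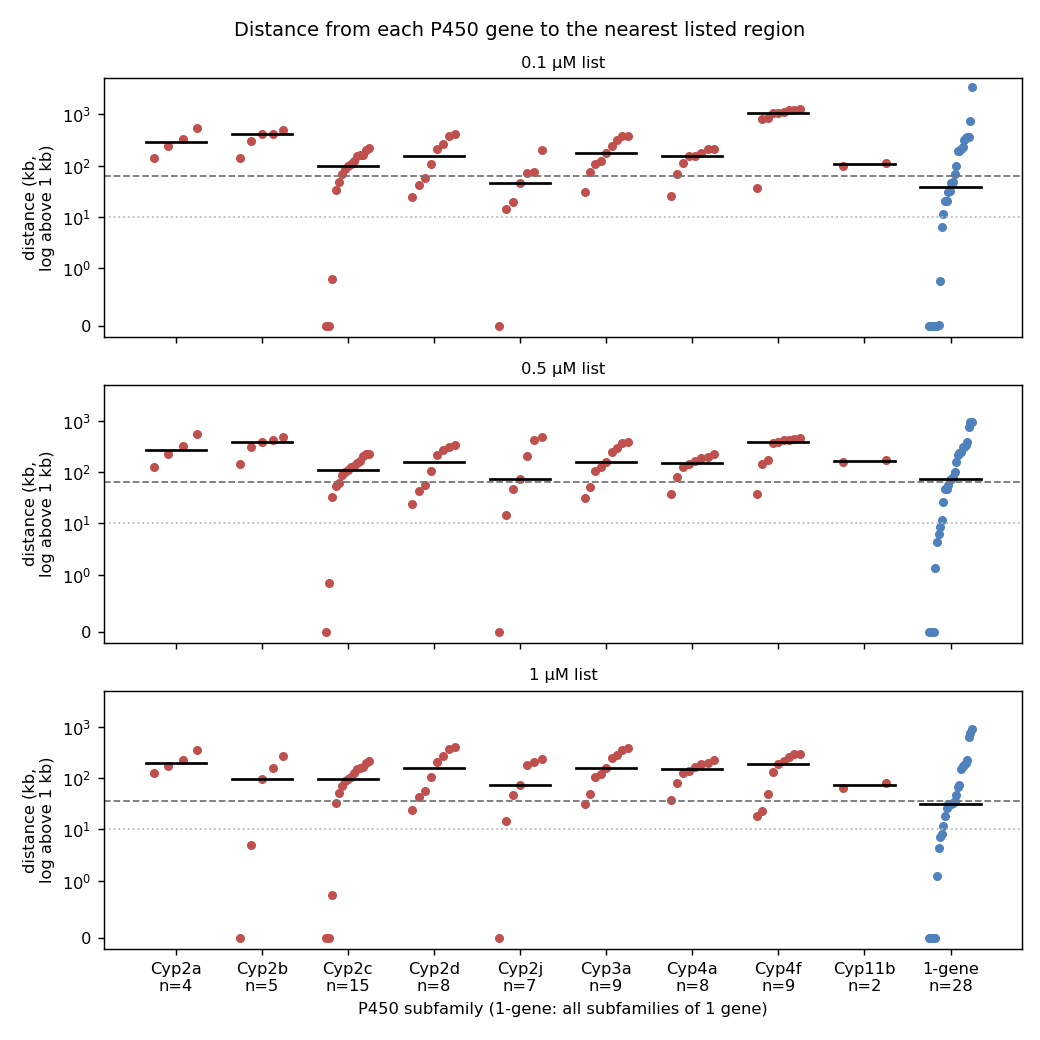
Distance in kb from each of 95 P450 genes to the nearest listed region (vertical axis, linear below 1 kb and logarithmic above, 0 where region and gene touch) by subfamily (red, with subfamilies of 1 gene pooled in blue), with 1 panel per list. Black bars are medians, the dashed line is the median of all protein-coding genes (61.9, 63.8 and 36.4 kb in order of dose) and the dotted line marks 10 kb. Cyp2a, Cyp2d, Cyp3a, Cyp4a, Cyp4f and Cyp11b have no point under the dotted line in any panel.

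Of 6 sterol and bile acid genes, 2, 2 and 2 had an end region in order of dose, against 19.5%, 18.7% and 23.0% of all genes, a difference of less than 1 gene. Cyp39a1, an oxysterol hydroxylase of bile acid synthesis, had a region over the low-coordinate end of the gene in each list. At 1 µM it spanned chr17:43666714-43667387. Its scores were 32, 38 and 40 in order of dose, the highest of any region near a P450 gene in each list, where the medians of all regions were 11, 10 and 13. The same region touched the end of the neighbouring gene Slc25a27, so it cannot be assigned to Cyp39a1 alone.

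Cyp7b1, which hydroxylates oxysterols in the alternative route to bile acids, had an end region at 0.1 µM (chr3:18242794-18243193, score 5) and at 1 µM (chr3:18243693-18244110, score 16), and none at 0.5 µM. These were separate places near the same end, and a second region lay 1350 bp outside it at 0.1 µM and 1351 bp outside it at 1 µM, with a score of 7 each time. Cyp27a1, the mitochondrial sterol side-chain hydroxylase, had a region at 0.5 µM only (chr1:74713078-74713385, score 7). It overlapped the outer gene end and ended 150 bp before the RefSeq start. Cyp7a1, the rate-limiting enzyme of the classical bile acid route, had a region inside the gene at 0.1 µM (score 7) and none within 10 kb in the other lists. Cyp8b1, which makes cholic acid, had none within 10 kb, its nearest region lying at 195, 56.4 and 195 kb in order of dose. Cyp46a1 had none within 10 kb either (31.5, 155 and 31.5 kb).

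Of 6 genes of vitamin D and retinoic acid metabolism, 1, 0 and 1 had an end region in order of dose, against 19.5%, 18.7% and 23.0% of all genes. The gene was Cyp24a1 each time. Cyp24a1, which inactivates vitamin D, had an end region at 0.1 µM (chr2:170481985-170482183, score 7) and at 1 µM (chr2:170497282-170497631, score 10), at opposite ends of the gene. The 1 µM region lay 854 bp from the end of Pfdn4, which it touched. At 1 µM a further region lay inside the gene (score 11). Other regions lay 5559 to 6187 bp outside the gene, inside Pfdn4, with scores of 15 and 9 at 0.1 µM, 12 at 0.5 µM and 5 and 13 at 1 µM. Cyp27b1, which makes the active hormone, had no end region, and each list had 1 region 8247 to 8413 bp beyond its far end, at the end of Cdk4, with scores of 11, 14 and 6. At 0.1 µM another lay 6551 bp before its start, at the end of Mettl1 (score 5). Cyp2r1 had no region within 10 kb. The retinoic acid hydroxylase genes Cyp26a1, Cyp26b1 and Cyp26c1 had none either, with the nearest region at 1 µM 183, 739 and 170 kb away.

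None of 6 steroid hormone synthesis genes had a region in the wide window in any list, against 31.7%, 30.2% and 36.8% of all genes. With so few genes, and with Cyp11b1 and Cyp11b2 sharing part of their windows, this is a gap of few genes. They are Cyp11a1, which cleaves the cholesterol side chain, Cyp11b1 and Cyp11b2, which complete corticosterone and aldosterone, Cyp17a1, Cyp19a1, the aromatase, and Cyp21a1. Their nearest regions at 1 µM lay between 32.4 kb (Cyp21a1) and 922 kb (Cyp11a1). All 6 are chiefly adrenal or gonadal genes, and whether that bears on the count was not tested.

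Of 28 fatty acid P450 genes, 2, 0 and 1 had an end region in order of dose, against 19.5%, 18.7% and 23.0% of all genes. In the wide window 4, 3 and 3 had a region, against 31.7%, 30.2% and 36.8%. The genes with an end region were Cyp4v3 and Cyp4b1. Cyp4v3, whose human counterpart is mutated in a retinal crystalline dystrophy, had a region over its start at 0.1 µM (chr8:45333065-45333587, score 22) and 1 µM (chr8:45332982-45333312, score 16), with none at 0.5 µM within 242 kb. Cyp4b1 had a region at 0.1 µM (chr4:115647730-115647928), 9 bp before its start, with a score of 5. The lowest score in any list was 4. In the CpG-marked sequences above, the Cyp4v3 promoter holds 17 CpG in 250 bases and that of Cyp4b1 holds 3.

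Cyp2j6, of a subfamily of arachidonic acid epoxygenases, was the one gene of the large fatty acid subfamilies with a region. It lay 10475 to 10578 bp inside the outer gene end, yet covered the RefSeq start in each list, because that start is 10654 bp inside the gene as drawn in the table. Its scores were 19, 13 and 21 (chr4:96553412-96553830 at 1 µM). The count of P450 genes at gene ends leaves this gene out, although its start was covered. Of the other genes in this role group, Cyp2u1, a fatty acid hydroxylase, had a region inside the gene at 0.1 µM (score 8) and 0.5 µM (score 23). Cyp4x1 had one 4.22 and 4.29 kb outside the gene at 0.5 and 1 µM (scores 7 and 13). The other 6 Cyp2j genes, the 8 Cyp4a genes, which hydroxylate fatty acids under control of PPARα, and the 9 Cyp4f genes had none in the wide window.

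Of 44 genes in the drug-metabolising subfamilies, Cyp2c included, 3, 2 and 5 had a region in the wide window in order of dose. The shares of all genes were 31.7%, 30.2% and 36.8%. None of the 9 Cyp3a genes, 8 Cyp2d genes or 4 Cyp2a genes had a region in the wide window in any list, nor did the single genes Cyp2e1, Cyp2f2 and Cyp2g1. Cyp2e1, the ethanol-inducible P450, lay 30.9, 47.0 and 30.8 kb from its nearest region in order of dose. Of 5 Cyp2b genes, 2 (40.0%) had a region at 1 µM, against 36.8% of all genes, and 0 at the other doses. These were Cyp2b10, a target of the receptor CAR, with a region 4984 bp inside its start (score 8), and Cyp2b23, with one 5074 bp beyond its far end (score 5), both named after their values were seen.

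In the Cyp2c subfamily, 3, 2 and 3 of 15 genes had a region in the wide window, against 31.7%, 30.2% and 36.8% of all genes. Cyp2c66 had a region 745 to 858 bp beyond its far end in each list (chr19:39187501-39187941 at 1 µM), with scores of 19, 9 and 24, and a second at 1 µM 4145 bp beyond that end (score 8). Cyp2c69 had one 860 to 937 bp inside its start in each list, with scores of 10, 10 and 5, and another 13863 to 13938 bp inside, with scores of 12, 10 and 15. At 0.5 µM there was also one 1545 bp inside (score 9). Its regions near the start were 1184 bp wide at 0.1 µM and 1091 bp at 1 µM, wider than 97.9% and 97.0% of regions in those lists. Cyp2c40 had regions inside its start at 0.1 µM (1468 bp, score 10) and 1 µM (1301 and 1614 bp, scores 7 and 5), just outside the 1 kb window, and none at 0.5 µM.

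The remaining genes fit none of these roles. Cyp20a1, an orphan P450 whose substrate is not established, had a region over its start in each list. It was 201 bp wide with a score of 5 at 0.1 µM, 361 bp with a score of 4 at 0.5 µM and 450 bp with a score of 22 at 1 µM. Cyp2t4 had a region 1366 bp (score 19) and 1265 bp (score 17) beyond its far end at 0.5 and 1 µM, within the neighbouring gene Egln2, and a second at 1 µM (score 5). Cyp2w1, known from human tumours and foetal gut, had one at 1 µM, 7191 bp before the gene and at the end of Cox19 (score 11). Cyp2s1 and Cyp2ab1 had none.

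**Figure D4:**
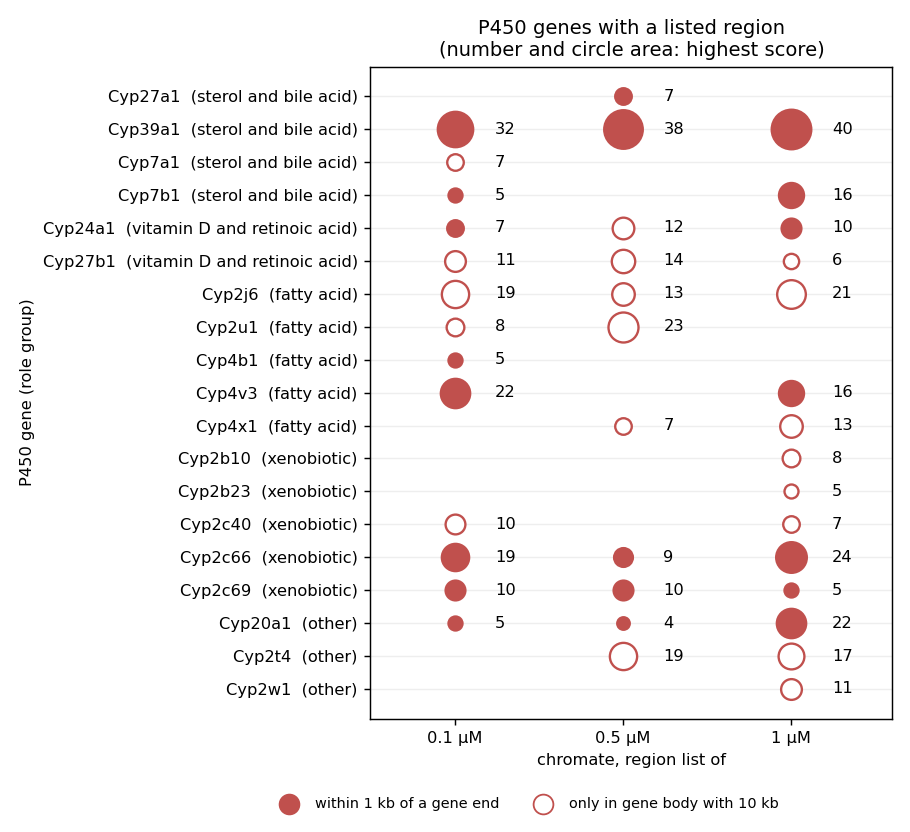
The 19 P450 genes with a listed region in at least 1 list (rows, with role group) against the 0.1, 0.5 and 1 µM lists (columns). Filled circles mark a region within 1 kb of a gene end and open circles one only in the gene body with 10 kb. The number and circle area give the highest deposited score, taken over the end regions where there are any, and Cyp39a1 has the highest value in each column at 32, 38 and 40.

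In the wide windows there were 18 distinct regions at 0.1 µM, 13 at 0.5 µM and 23 at 1 µM, with median scores of 9.5, 10 and 11. Of these, 7, 6 and 10 lay in the upper 50% of their list by score. The number that touched another protein-coding gene was 5, 4 and 8.

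Tandem arrays were next examined as stretches of chromosome, since genes in an array share flanks. Members of an array were taken as P450 genes under 500 kb apart, with at least 3 in a row, which gave 7 arrays. The Cyp3a array on chromosome 5 (8 genes, 0.790 Mb), the Cyp2d array on chromosome 15 (8 genes, 0.444 Mb) and the Cyp4f array on chromosome 17 (8 genes, 0.515 Mb) held 0 regions in each list. The densities of their chromosomes were 3.75, 2.95 and 4.25 regions per Mb for chromosome 5, and 7.53, 7.84 and 8.95 for chromosome 17.

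The Cyp2d array stood out for its place. Chromosome 15 held 18.1, 16.3 and 20.4 regions per Mb in order of dose, the highest among the chromosomes that hold a P450 array, and 388, 405 and 426 of its 776 protein-coding genes had a region in the body with 10 kb. None of the 8 Cyp2d genes and neither Cyp11b gene on that chromosome did. The Cyp2d genes lie in 1 array and are short, with a median of 4.43 kb against 17.3 kb over all protein-coding genes. They are therefore not independent, and their windows are small. Cyp2d22, at the low-coordinate edge of the array and named after its value was seen, was 24.1 kb from a region at 1 µM.

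Regions were present but sparse in the other arrays. The Cyp2c array on chromosome 19 (14 genes, 1.20 Mb) held 4, 4 and 6 regions, or 3.33, 3.33 and 5.00 per Mb, against 6.70, 5.73 and 8.0 for the chromosome. The array of Cyp2a, Cyp2b, Cyp2f, Cyp2g, Cyp2s and Cyp2t on chromosome 7 (13 genes, 1.38 Mb) held 0, 1 and 4 regions. That was 0, 0.727 and 2.91 per Mb, against 5.21, 4.07 and 6.0 for the chromosome. The Cyp2j array and that of Cyp4a, Cyp4b and Cyp4x, both on chromosome 4, each held 1 region in each list. Their densities were 1.56 and 1.78 per Mb, against 3.98, 2.58 and 4.2 for chromosome 4 in order of dose.

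**Figure D5:**
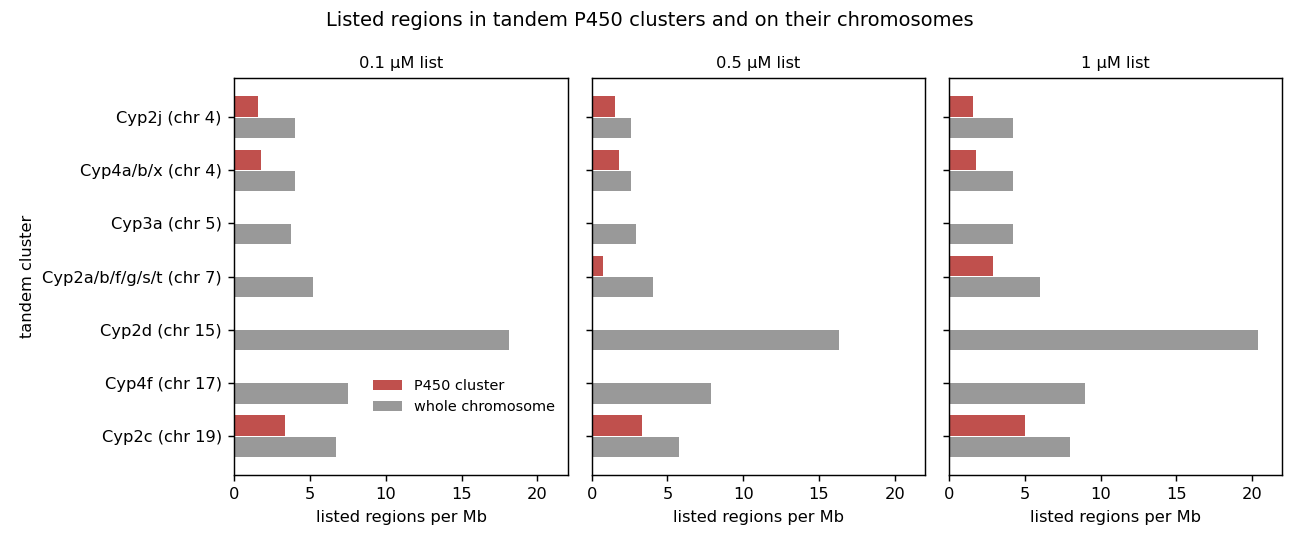
Listed regions per Mb (horizontal axis) within 7 tandem P450 arrays (red) and over their whole chromosome up to its last protein-coding gene (grey), with 1 panel per list. The Cyp3a, Cyp2d and Cyp4f arrays have no red bar in any panel, and every red bar is shorter than the grey bar of its chromosome, which reaches 20.4 for chromosome 15.

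Copies within an array can be so alike that short reads do not tell them apart. The treatment of reads that map to more than 1 place was not stated in any label or file. Among the 54 genes with a promoter in the table and a subfamily partner there, 25 had a partner whose promoter was over 80% identical. The closest pairs were Cyp2b9 and Cyp2b13 at 99.3%, Cyp3a41a and Cyp3a41b at 98.3% and Cyp2a4 and Cyp2a5 at 98.0%. In the wide window, 3 of these 25 genes (Cyp2c40, Cyp2c66 and Cyp2c69) and 3 of the other 29 (Cyp2b10, Cyp2b23 and Cyp2j6) had a region in at least 1 list. Of all protein-coding genes, 57.3% had no region there in any list. The part of read mapping in the empty arrays was not tested, and absence of a region from such a copy is uncertain. The Cyp2c69 promoter was 92.3% identical to that of Cyp2c68 and 89.0% to that of Cyp2c40. The listed regions of these genes lay outside the promoter bases compared. The nearest to the start lay 860 bp inside it in Cyp2c69, at 0.1 µM, and 1301 bp inside it in Cyp2c40, at 1 µM. Identity at the regions themselves was not examined, so whether those of Cyp2c40 and Cyp2c69 belong to the gene named was not tested.

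Some Cyp2c and Cyp3a promoters shared a short sequence. The letters CAAAGTCCA, a known binding sequence of the liver receptor HNF4A, were searched on both strands of the 300 bases. They occurred in 11 of 73 P450 promoters (15.1%), against 0.423% of all 17274 promoters. The matches were in 6 of 13 Cyp2c genes, 4 of 9 Cyp3a genes and Cyp8b1, all on the gene's own strand and beginning 45 to 125 bases before the start. The 11 are shown to let the copies be compared, with the match in capitals and 15 bases either side.
Cyp2c40: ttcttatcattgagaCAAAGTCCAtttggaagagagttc
Cyp2c65: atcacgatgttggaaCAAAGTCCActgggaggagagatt
Cyp2c67: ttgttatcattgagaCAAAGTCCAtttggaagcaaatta
Cyp2c68: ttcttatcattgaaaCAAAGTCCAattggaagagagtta
Cyp2c69: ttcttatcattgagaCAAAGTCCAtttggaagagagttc
Cyp2c70: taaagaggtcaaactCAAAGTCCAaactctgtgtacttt
Cyp3a11: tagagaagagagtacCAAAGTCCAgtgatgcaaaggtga
Cyp3a16: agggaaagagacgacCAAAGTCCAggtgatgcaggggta
Cyp3a41a: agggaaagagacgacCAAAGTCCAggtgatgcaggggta
Cyp3a41b: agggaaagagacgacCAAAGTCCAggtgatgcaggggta
Cyp8b1: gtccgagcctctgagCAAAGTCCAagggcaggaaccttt
The 39 bases of Cyp2c40 and Cyp2c69 were identical, as were those of Cyp3a16, Cyp3a41a and Cyp3a41b, so these matches are not independent. Of the 11 genes, Cyp2c69 was the one with a listed region within 1 kb of its start. The letters TATAAA, searched on both strands of the 300 bases, occurred in 29 P450 promoters (39.7%), against 13.4% of all promoters. Of the genes with a listed region within 1 kb of the start, Cyp2c69 had them. Cyp20a1, Cyp4v3, Cyp27a1, Cyp2j6 and Cyp4b1 did not. A match is a description of the letters and not evidence of binding.

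Genes that serve P450 enzymes were taken from 3 lists, which, like the members, were chosen with earlier results known. Of 9 redox partner genes found in the table, 3, 5 and 3 had an end region in order of dose, against 19.5%, 18.7% and 23.0% of all genes. Among them were Cyb5a, the electron carrier cytochrome b5 (scores 192, 81 and 43), Fdxr, which feeds the mitochondrial P450 enzymes (32, 9 and 41), and Pgrmc2 (32, 16 and 35). Cyb5b (6) and Cyb5r1 (11) had one at 0.5 µM. Por, P450 oxidoreductase, had no end region, and a region within 10 kb at 0.5 and 1 µM. Of 13 genes of haem synthesis and breakdown, 8, 8 and 7 had an end region, against the same shares of all genes. The synthesis genes Alad, Cpox, Fech and Ppox and the breakdown genes Hmox1, Blvra and Blvrb had one in each list, with scores of 36, 26 and 60 in Ppox and 35, 14 and 22 in Cpox. Uros had one at 0.1 µM (11) and Urod at 0.5 µM (5), and Alas1, the rate-limiting enzyme of liver haem synthesis, had none in the wide window.

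Of 28 genes of receptors and liver factors that act on P450 promoters, 3, 4 and 9 had an end region, against 19.5%, 18.7% and 23.0% of all genes. Foxa2, Cebpb and the bile acid receptor gene Nr1h4 had one in each list, with scores of 32, 24 and 23 in Foxa2, 12, 8 and 15 in Cebpb, and 7, 8 and 15 in Nr1h4. The vitamin D receptor gene Vdr had one at 0.5 µM (9) and 1 µM (11). Those listed at 1 µM alone were Foxa1 (8), the LXR genes Nr1h2 (7) and Nr1h3 (10), Nr5a2 (9) and Rarg (7). The receptor genes Nr1i2 (PXR), Ppara and Rxra and the factor genes Hnf4a and Cebpa had no end region in any list, and Nr1i3 (CAR) had a region in each list in the wide window and none at an end.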

How the data were processed

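ATAC-seq was run on 8 libraries of Hepa-1c1c7 cells, 2 for each of 4 chromate doses. The deposited files are 3 region lists, 1 per treated dose, each shared by the 2 libraries of that dose and named against the untreated cells. Each deposited region carries a whole-number score whose scale the authors do not state. Per the submitters' processing notes, Bowtie2, Picard, MACS2 and the build mm10 were used, with no version or role given. Pooling, thresholds, duplicate removal, the shift for Tn5 and the use of the control are steps not given in the sources.

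Region coordinates were turned to 1-based and compared with the RefSeq gene table of GRCm38.p6, using Python 3.11.15, pandas 2.3.3 and numpy 2.4.6. The table gives no exons, so exonic and intronic positions are not given. Strand and start site came from the RefSeq promoter table, in the row nearest the outer 5′ end. A region counted by an overlap of at least 1 bp. Promoter identity is the share of 300 bases that a global alignment in Biopython 1.88 matched. Of 10 motifs searched, 1 is not reported here. The overlap functions were tested on simulated data.

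Each dose had 1 list, so replicates could not be compared, and no test was run. Members and lists were chosen with earlier results of these data known. Named were members with an end region in any list or a wide-window region in at least 2 lists, and others by subfamily or, where the subfamily has 1 gene, by name. The gene Fdx1l was not found under that symbol, nor H19 among protein-coding genes. Promoters of 22 members had no entry: Cyp11b1, Cyp11b2, Cyp17a1, Cyp21a1, Cyp24a1, Cyp2c23, Cyp2c54, Cyp2d12, Cyp2d22, Cyp2d34, Cyp2g1, Cyp2u1, Cyp39a1, Cyp4a10, Cyp4a12a, Cyp4a12b, Cyp4a14, Cyp4a31, Cyp4f17, Cyp4x1, Cyp7a1 and Cyp7b1. Titles of the 1 µM libraries begin with another index name than the rest, which cannot be told apart from that dose.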

Additional observations from a re-analysis of the deposited data

How the results depend on the processing

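No paired analysis was possible because each dose has 1 list, and for the same reason no library could be left out. In all 48 combinations of count, list and alternative, the share of P450 genes with a region was below that of all protein-coding genes under the same setting, at 0.181 to 0.517 times it. Of these, 33 gave a count within 1.5 times that reported. The other 15 were all smaller, as each keeps fewer regions, a narrower window or fewer genes. With the higher-scoring 50% of each list, end regions were found in 3 genes at 0.1 µM and 2 at 0.5 µM, and wide-window regions in 7 and 7. With the wider 50%, end regions were found in 5 genes at 0.1 µM and 3 at 0.5 µM, and wide-window regions in 7, 5 and 9 in order of dose. A window of 500 bp gave 4 genes at 0.1 µM and 3 at 0.5 µM. Counting only the start site, in 73 genes, gave 5 at 0.1 µM and 4 at 1 µM, with Cyp2j6 added each time. The gene body without flanks gave 6 genes at 0.5 µM and 9 at 1 µM. Counts of 2 to 21 genes over the alternatives limit what can be read from any of these. Without chromosome 15 no count moved, since no member there had a region.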

Other observations

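Other motifs searched in the 300-base promoters, on both strands, included CCAAT in 34 of 73 P450 promoters (46.6%, against 39.6% of all promoters), TGACTCA, the AP-1 site, in 5 (6.85%, against 4.60%), CCGCCC in 16 (21.9%, against 46.9%) and GCGTG, the core of the AHR site, in 14 (19.2%, against 38.9%). TTGCGCAA, a C/EBP palindrome, was in 0 of 73, against 0.22% of all promoters. A direct repeat of nuclear receptor core sites spaced by 1 base and one spaced by 4 bases were each in 0 of 73, against 0.0521% and 0.0174% of all promoters. None of these motifs contains another.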
